A study of Mus musculus with 18 samples.

Results

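The collagen genes are the genes whose symbol is Col, a type number, the letter a and a chain number. All 44 genes of that pattern in the annotation had at least 1 count in at least 3 of the 18 libraries, so all 44 were followed here, out of 31813 genes that met the same count rule and 55401 in the table. The rule used symbols and a count minimum, and no difference between groups. Of the 44, 42 had enough counts to be tested; Col10a1 with 40 counts and Col4a6 with 4 counts over all libraries were not.

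Collagens are extracellular proteins wound from 3 chains into a triple helix, and their chain genes are numbered by type. Fibrillar collagens make cables, FACIT collagens (fibril-associated collagens with interrupted triple helices) coat those cables, type IV makes the sheet of basement membranes, type VI makes beaded filaments beside them, and transmembrane collagens and multiplexins sit at cell surfaces and basement membranes. In brain, basement membranes line the vessels and the brain surface, fibrillar collagens are mostly a product of meningeal and perivascular fibroblasts, and several minor collagens are made by neurons.

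RNA was sequenced from the BNST, the bed nucleus beside the stria terminalis, and from the prelimbic part of the medial prefrontal cortex (mPFC) of wild-type male C57BL/6 mice aged 6 to 8 weeks. Mice received 10 μL of 1% formalin in the hind paw and were collected 24 h later (acute pain), or 10 μL of 50% complete Freund's adjuvant (CFA) and were collected 72 h later (persistent pain), while control mice had neither injection per the labels (the study's figure legends call them sham). Because each agent had its own collection time, agent and time cannot be told apart, and whether controls had a vehicle injection is not clear from the sources used here. Each of the 6 groups had 3 libraries from 3 brains, and p-values measure the spread between these animals. Both regions were dissected from each brain, and animal numbers in library names matched between regions for all formalin and CFA libraries and for 2 of 3 control libraries in each region. The tests between regions did not use this pairing unless a block by animal number is named. Lane tags in library names put BNST control 1 and 2 in lane 1 and BNST formalin 1 in lane 3. All other libraries, BNST control 3 and every BNST CFA library included, were in lane 2. In the BNST, lane and treatment therefore cannot be fully told apart.

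Totals ran from 14781315 to 23408503 counts per library, and 18994 genes were tested. The summed level of 8 BNST markers was 1053 to 1747 CPM (counts scaled for library size) in BNST libraries and 628 to 747 CPM in mPFC libraries, and that of 6 cortical pyramidal genes was 29.2 to 542 CPM in BNST libraries and 2009 to 2499 CPM in mPFC libraries. In the test between regions described below, 5 of the 8 BNST markers were higher in the BNST and 1, Sst, was lower. The markers Crh and Esr1 did not pass. The BNST libraries were not alike in the levels of markers of other tissues. The sum of 10 choroid plexus markers was 5450, 14300 and 9607 CPM in BNST formalin libraries 1 to 3, 553, 27440 and 434 CPM in BNST CFA libraries 1 to 3, 270, 1416 and 258 CPM in BNST control libraries 1 to 3, and 145 to 213 CPM in the mPFC. The sum of 8 striatal markers was 1135 to 1618 CPM after formalin, 228 to 589 CPM after CFA and 1308 to 3251 CPM in BNST controls. In these bulk samples, fewer cells of a type and less RNA per cell cannot be told apart.

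Collagen genes often lie in pairs, and the sequences that follow show the starts of the members the results turn on. Col4a1 and Col4a2 encode the main chains of type IV collagen and are transcribed away from each other on chromosome 8. Their annotated starts overlap, so that the 22 bases at chr8:11312805-11312826 (GRCm38, plus strand) belong to the first exon of both; the capitals mark a GC box.
Col4a1/Col4a2 shared start: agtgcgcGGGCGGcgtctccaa
The letters come from the RefSeq promoter table (build GRCm38.p6), which held 35 of the 44 members; Col1a1, Col2a1, Col4a3, Col5a2, Col9a3, Col12a1, Col14a1, Col22a1 and Col26a1 had no entry and are named only.

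The 250 bases before the RefSeq start are given for 3 chains of fibrillar collagens that passed in treatment comparisons and for both chains of type VIII collagen, 1 of which had the largest change between regions. They are Col11a2 at chr17:34038888-34039137 on the plus strand, Col5a1 at chr2:27886175-27886424 on the plus strand, Col5a3 at chr9:20815068-20815317 on the minus strand, Col8a1 at chr16:57754738-57754987 on the minus strand and Col8a2 at chr4:126286544-126286793 on the plus strand, each written in the direction of transcription. Capitals mark the GC box GGGCGG, the CCAAT box CCAAT and the TATA box TATAAA on either strand, where runs that overlap are merged.
Col11a2: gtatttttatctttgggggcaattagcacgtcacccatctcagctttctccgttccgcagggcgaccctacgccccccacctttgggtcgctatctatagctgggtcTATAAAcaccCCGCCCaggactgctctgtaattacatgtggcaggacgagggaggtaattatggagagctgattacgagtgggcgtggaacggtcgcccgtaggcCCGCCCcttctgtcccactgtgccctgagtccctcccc
Col5a1: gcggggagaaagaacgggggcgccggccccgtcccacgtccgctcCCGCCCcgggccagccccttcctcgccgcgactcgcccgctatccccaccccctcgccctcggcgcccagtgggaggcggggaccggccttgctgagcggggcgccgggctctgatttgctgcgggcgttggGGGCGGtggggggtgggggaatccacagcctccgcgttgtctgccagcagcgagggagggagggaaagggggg
Col5a3: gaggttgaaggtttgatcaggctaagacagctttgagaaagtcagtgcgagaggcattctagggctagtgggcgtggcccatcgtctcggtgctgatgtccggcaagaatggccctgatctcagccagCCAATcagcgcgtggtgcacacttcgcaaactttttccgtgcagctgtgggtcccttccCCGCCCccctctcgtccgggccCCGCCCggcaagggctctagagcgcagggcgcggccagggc
Col8a1: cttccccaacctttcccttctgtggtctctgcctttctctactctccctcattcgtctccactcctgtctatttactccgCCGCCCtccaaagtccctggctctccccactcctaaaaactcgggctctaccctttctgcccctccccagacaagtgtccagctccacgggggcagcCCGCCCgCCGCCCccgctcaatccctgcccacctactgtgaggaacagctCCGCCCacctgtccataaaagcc
Col8a2: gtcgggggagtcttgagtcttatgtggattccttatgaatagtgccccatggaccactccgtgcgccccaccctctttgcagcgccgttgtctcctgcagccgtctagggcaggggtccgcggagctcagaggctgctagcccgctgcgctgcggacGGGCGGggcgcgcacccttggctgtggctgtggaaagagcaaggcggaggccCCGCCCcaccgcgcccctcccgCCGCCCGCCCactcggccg
Col8a1 and Col8a2 each had 4 GC boxes, counting overlapping ones, and Col11a2, Col5a1 and Col5a3 had 2 each. Of these 5 windows, that of Col11a2 held a TATA box and that of Col5a3 a CCAAT box. Over the 38 windows of the 35 members, 57.9% held a GC box, 34.2% a CCAAT box and 13.2% a TATA box; over all 32851 windows in the table the shares were 32.7%, 33.8% and 12.4%. A match is a description of letters and not a binding site.

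Per unit of length, 3 of the 5 leading chains were shared by the regions. Levels between genes are given in TPM (transcript share scaled for gene length), computed from the counts and the summed exon length of each gene. In the BNST the 5 members with the highest mean level were Col9a3, a FACIT chain of cartilage-type fibrils, Col25a1, a neuronal transmembrane collagen found in amyloid plaques, Col8a2, Col6a1 and Col4a2, and together they made 53.9% of the summed collagen level of 366 TPM. In the mPFC they were Col6a1, Col4a2, Col4a1, Col25a1 and Col12a1, a FACIT chain that binds type I fibrils, with 59.2% of 332 TPM. These orders pool treated and control mice. In BNST controls alone Col6a1 had the highest mean, 55.8 ± 33.4 TPM (SD, n = 3), before Col25a1 at 48.1 TPM and Col4a2 at 31.1 TPM. Its lead over Col25a1 rested on control library 3, as Col25a1 was higher in control libraries 1 and 2. Col9a3 averaged 22.0 TPM and Col8a2 15.1 TPM in BNST controls. Col6a1 averaged 115 TPM in mPFC controls. Among the 44 members, 10 in the BNST and 11 in the mPFC averaged 10 TPM or more, while 10 in the BNST and 13 in the mPFC averaged under 1 TPM.

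Col9a3 had 44.5, 103 and 75.8 TPM in BNST formalin libraries 1 to 3, 11.4, 104 and 14.6 TPM in BNST CFA libraries and 15.6, 18.9 and 31.5 TPM in BNST control libraries. Col8a2 had 38.3, 82.8 and 57.2 TPM after formalin, 14.0, 108 and 10.1 TPM after CFA and 14.0, 15.8 and 15.5 TPM in controls. Both were high in the 3 formalin libraries and in CFA library 2, so their places at the top rest on 4 of the 9 libraries. Col25a1 was steadier, with 47.6, 41.9 and 40.3 TPM after formalin, 44.6, 29.3 and 49.3 TPM after CFA and 41.1, 43.3 and 59.7 TPM in controls. Col6a1, the first chain of type VI filaments, had 36.1, 55.2 and 41.4 TPM after formalin, 20.4, 16.3 and 18 TPM after CFA and 31.0, 42.5 and 93.8 TPM in controls, and its 3 CFA libraries lay below the other 6. Col4a2 had 31.9, 28.6 and 24.6 TPM after formalin, 25.5, 16.5 and 25.9 TPM after CFA and 24.2, 29.3 and 39.7 TPM in controls, with the 3 groups overlapping.

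In the mPFC, Col6a1 had 80.0, 59.3 and 67.8 TPM after formalin, 80.0, 93.2 and 126 TPM after CFA and 107, 97.8 and 141 TPM in controls. Col4a2 had 37.2, 35.8 and 27.7 TPM after formalin, 55.5, 53.4 and 51.3 TPM after CFA and 47.3, 48.6 and 49.6 TPM in controls, and Col4a1 had 22.3, 20.1 and 17.5 TPM after formalin, 26.1, 27.5 and 27.3 TPM after CFA and 23.6, 24.9 and 27.7 TPM in controls. The formalin libraries were the lowest for both type IV chains. Col12a1 had 13.7, 11.8 and 14.8 TPM after formalin, 15, 13.9 and 14.2 TPM after CFA and 19.9, 19.3 and 22.3 TPM in controls, so that controls were highest. Col25a1 ranged from 15.5 to 19.9 TPM over the 9 mPFC libraries, with a median of 16.5 TPM, and showed no order of groups. The next members, Col19a1 at 15.8 ± 1.94 TPM and Col5a1 at 15.7 ± 5.37 TPM (SD, n = 9), did not differ from Col12a1 at 16.1 ± 3.51 TPM beyond their spread.

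**Figure D1:**
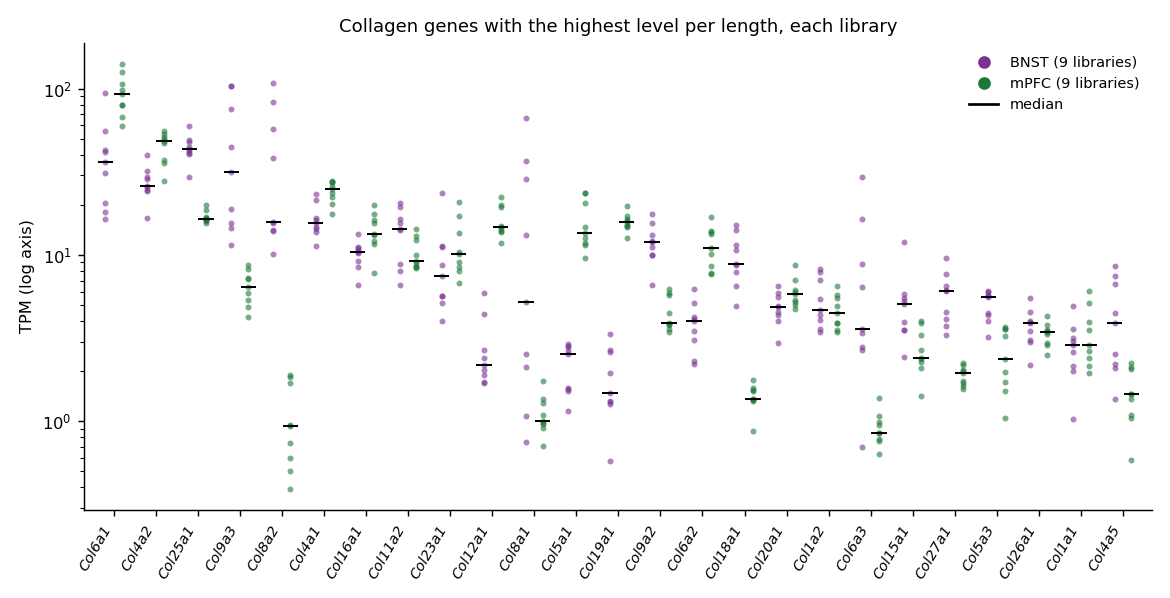
Levels per length (TPM, log axis) of the 25 collagen genes with the highest mean over the 18 libraries. Each point is a library, 9 from the BNST (left of each pair) and 9 from the mPFC (right), and the black line is the median; Col8a2, Col8a1, Col9a3 and Col6a3 spread widely in the BNST, Col8a1 from 0.749 to 66.6 TPM, while Col25a1 stays between 29.3 and 59.7 TPM there.

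The comparison of regions asked which collagens mark the BNST against the mPFC, as the mean of the differences within formalin, CFA and control mice. A gene was taken as different at an adjusted p under 0.05 (edgeR quasi-likelihood test, Benjamini-Hochberg over all genes tested) and an absolute log2 fold change above 0.5. Of 42 members, 29 passed, 18 higher and 11 lower in the BNST, beside 37.2% of all genes tested (20.9% higher, 16.3% lower). The median log2 fold change was 0.24 for the members and 0.02 for all genes. Without the 4 BNST libraries that held high choroid plexus sums, an alternative chosen after seeing the data, 26 members passed, 13 higher and 13 lower, beside 33.7% of all genes in that fit. It held no BNST formalin library, so it used the mean of the differences within CFA and control mice only. The BNST libraries kept still had choroid plexus sums of 257.9 to 1416 CPM, against 145.1 to 212.8 CPM in the mPFC. Their ependymal sums were 70.42 to 137.4 CPM, against 5.133 to 10.41 CPM. In the 6 control libraries alone the calls of Col2a1, Col5a3, Col6a1, Col6a3, Col9a1 and Col15a1 were lost. Those of Col4a3, Col4a4, Col4a5 and Col8a1 were lost there too.

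**Figure D2:**
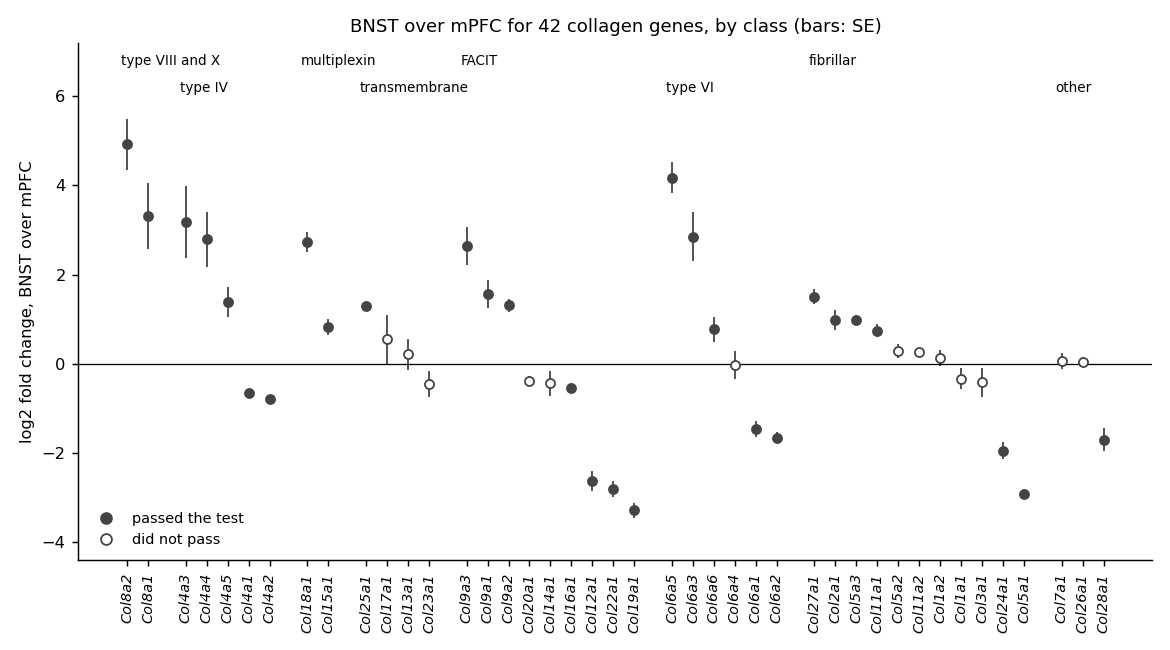
Log2 fold change of BNST over mPFC for the 42 tested collagen genes, grouped by class, with bars for the standard error. Filled points passed the test; type VIII and multiplexin chains all lie above 0, and type IV, type VI, FACIT and fibrillar chains lie on both sides.

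Type VIII collagen, a short-chain network protein of vessel walls and of the corneal Descemet membrane, showed the widest gap. Col8a2 (chromosome 4, 126286793 to 126314330) had 11.7, 17.6 and 139 CPM as the lowest, median and highest of 9 BNST libraries and 0.473, 1.09 and 2.34 CPM in the mPFC, a log2 fold change of 4.92 ± 0.57 (SE) with adjusted p = 5.4e-06. The regions did not overlap for it. Col8a1 (chromosome 16, 57624258 to 57754737) had 1.36, 10.1 and 149 CPM in the BNST and 1.48, 2.25 and 3.47 CPM in the mPFC, a change of 3.32 ± 0.75 with adjusted p = 0.0016. Its lowest BNST library lay below all mPFC libraries and another, at 2.10 CPM, among them, so the regions overlapped. Without the 4 libraries with high choroid plexus sums, the change of Col8a2 was 3.65 (adjusted p = 1.2e-06) and that of Col8a1 was 1.03 (adjusted p = 0.066). In the 6 control libraries alone Col8a1 gave 0.73, and in the lane 2 libraries alone it gave 2.85 with adjusted p = 0.091.

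The type IV chains split by pair. Col4a3, Col4a4 and Col4a5, chains of the basement membranes of kidney and inner ear, rose in the BNST, while the common vessel chains Col4a1 and Col4a2 fell. Col4a3 (chromosome 1, 82586921 to 82722059) had 0.329, 2.33 and 18.3 CPM in the BNST and 0.225, 0.342 and 0.790 CPM in the mPFC, with a log2 fold change of 3.18 ± 0.81 and adjusted p = 0.0035. Col4a4 lies head to head with it, 71 bases away, and had 0.828, 2.33 and 20.5 CPM in the BNST and 0.463, 0.631 and 1.42 CPM in the mPFC, a change of 2.79 ± 0.62 with adjusted p = 0.0012. The regions overlapped for both, and their high values were again in formalin libraries 1 to 3 and CFA library 2. Col4a5 changed by 1.38 ± 0.34 with adjusted p = 0.0022, and its partner on the X chromosome, Col4a6, had at most 0.129 CPM in any library. Without the 4 libraries with high choroid plexus sums, Col4a3, Col4a4 and Col4a5 gave 0.40, 0.55 and 0.54 with adjusted p of 0.52, 0.13 and 0.15, and in the lane 2 libraries alone Col4a3 gave 2.90 with adjusted p = 0.097.

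Col4a1 changed by -0.64 ± 0.08 (adjusted p = 9.4e-07) and Col4a2 by -0.79 ± 0.09 (adjusted p = 5.6e-07), although their ranges of 24.0 to 40.4 CPM and 31.3 to 61.1 CPM in the BNST met those of 37.5 to 54.2 CPM and 52.8 to 98.4 CPM in the mPFC. These chains form 1 trimer in the cell, and their ratio held within narrow limits: the TPM of Col4a2 over that of Col4a1 was 1.47 to 1.89 in the 9 BNST libraries and 1.59 to 2.13 in the 9 mPFC libraries. By contrast, Col4a4 over Col4a3 spanned 0.939 to 3.40 among BNST libraries and 0.939 to 3.76 among mPFC libraries, where both chains stayed under 1.5 CPM. The summed level of 10 mural markers was 102 to 158 CPM in the BNST and 149 to 227 CPM in the mPFC, and that of 10 endothelial markers was 93.5 to 167 CPM in the BNST and 110 to 201 CPM in the mPFC; their part in the change of Col4a1 and Col4a2 was not tested.

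Type VI chains also moved in opposite directions. Col6a5 (chromosome 9, 105856078 to 105960643), a minor chain, had 3.65, 6.92 and 15.3 CPM in the BNST and 0.0591, 0.545 and 1.03 CPM in the mPFC, a log2 fold change of 4.17 ± 0.35 with adjusted p = 2.8e-08 and no overlap. Col6a3 (chromosome 1, 90765923 to 90843971), the large chain of the usual filament, had 2.10, 11.6 and 81.7 CPM in the BNST and 2.13, 2.72 and 4.2 CPM in the mPFC, a change of 2.86 ± 0.55 with adjusted p = 4.5e-04. Its lowest BNST library fell below all mPFC libraries, so the regions overlapped. Col6a6 was 0.78 ± 0.28 higher (adjusted p = 0.02), a call that was lost without BNST control replicate 3, BNST CFA replicate 3 or mPFC CFA replicate 1, where its change ran from 0.62 to 0.92 over all 18 such fits. The call was also lost with limma-voom (0.66, adjusted p = 0.051) and without the 4 libraries with high choroid plexus sums (0.88, adjusted p = 0.057), and within control mice the change was -0.01. Its neighbour Col6a4 gave -0.01.

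The main chains Col6a1 and Col6a2, which lie 85.2 kb apart on chromosome 10 on the same strand, fell in the BNST by 1.47 ± 0.18 (adjusted p = 7.4e-06) and by 1.65 ± 0.12 (adjusted p = 1.5e-09) on the log2 scale. Col6a2 had 5.13, 8.17 and 12.1 CPM in the BNST and 17.8, 24.5 and 37.0 CPM in the mPFC without overlap, and Col6a1 had 20.2, 39.0 and 95.4 CPM in the BNST and 72.8, 108 and 158 CPM in the mPFC. As Col6a1, Col6a2 and Col6a3 supply 1 chain each to the usual filament, their ratios are given too. The TPM of Col6a3 over Col6a1 was 0.0166 to 0.456 in the BNST, median 0.155, and 0.00618 to 0.0119 in the mPFC, median 0.0106, so the mPFC libraries held little RNA of the third chain. Col6a1 over Col6a2 was 5.19 to 14.9 in the BNST and 6.81 to 10.1 in the mPFC.

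Among FACIT chains, the 3 chains of type IX rose in the BNST and 4 others fell. Col9a3 changed by 2.65 ± 0.43 (adjusted p = 1.1e-04), Col9a1 by 1.57 ± 0.32 (adjusted p = 3.1e-04) and Col9a2 by 1.32 ± 0.15 (adjusted p = 4.0e-07), and for Col9a3 the value was 1.39 (adjusted p = 3.6e-07) without the 4 libraries with high choroid plexus sums. The chains of this trimer were far from equal: the TPM of Col9a3 over Col9a1 was 6.89 to 87.1 in the BNST and 8.22 to 35.5 in the mPFC. Of the exon bases of Col9a3, 6.07% also belong to Tcfl5, and 5.65% of those of Col4a3 to C430014B12Rik; strand use in counting is not given in the sources used here, so reads there cannot be assigned with certainty.

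Col19a1 (chromosome 1, 24261890 to 24587472), a FACIT chain that in mouse brain is made by interneurons, had 1.13, 2.49 and 5.66 CPM in the BNST and 25.1, 28.7 and 35.0 CPM in the mPFC, a log2 fold change of -3.28 ± 0.17 with adjusted p = 7.2e-11. It lies 9.2 kb from Col9a1, which changed the other way. Col22a1 (chromosome 15, 71795795 to 72034227), known from muscle-tendon junctions, had 0.271, 0.372 and 0.567 CPM in the BNST and 2.06, 3.01 and 4.25 CPM in the mPFC, a change of -2.80 ± 0.17 with adjusted p = 1.8e-10. Col12a1 (chromosome 9, 79598991 to 79718831) had 6.43, 8.89 and 22.5 CPM in the BNST and 50.1, 61.2 and 86.8 CPM in the mPFC, a change of -2.62 ± 0.21 with adjusted p = 9.7e-08. The regions did not overlap for any of the 3. Col16a1 was lower by a smaller amount, -0.53 ± 0.11 (adjusted p = 3.1e-04), and lay under the 0.5 limit without mPFC formalin replicate 2 or BNST CFA replicate 2, where the smallest change was -0.46.

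Of 11 fibrillar chains, 4 rose in the BNST and 2 fell. Col5a1 (chromosome 2, 27886425 to 28039514), the chain of type V collagen that starts and limits fibrils, had 2.59, 5.39 and 6.13 CPM in the BNST and 22.6, 31.5 and 50.9 CPM in the mPFC, a log2 fold change of -2.92 ± 0.10 with adjusted p = 1.7e-13. Its partner Col5a2 gave 0.30 and did not pass, and the TPM of Col5a1 over Col5a2 was 0.631 to 1.41 in the BNST and 6.64 to 12.4 in the mPFC. Col5a3, the third type V chain, rose by 0.98 ± 0.11 (adjusted p = 2.9e-07). The 3 chains of type V collagen thus had 3 different directions or calls between the regions.

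Col24a1 (chromosome 3, 145292472 to 145552011), a fibrillar chain of bone and cornea, had 0.271, 0.805 and 1.53 CPM in the BNST and 1.77, 3.37 and 5.46 CPM in the mPFC, a log2 fold change of -1.94 ± 0.18 with adjusted p = 4.1e-08 and no overlap. Col27a1 and Col2a1, cartilage fibril chains, rose by 1.51 ± 0.17 (adjusted p = 7.5e-07) and 0.99 ± 0.22 (adjusted p = 7.7e-04), and Col11a1 rose by 0.75 ± 0.15 (adjusted p = 3.9e-04). Col1a1, Col1a2 and Col3a1, the classic fibroblast fibrils, gave -0.33 ± 0.24, 0.13 ± 0.18 and -0.41 ± 0.32 and did not pass. Among 10 markers of meningeal and perivascular fibroblasts, 1 was higher and 4 were lower in the BNST, and the median was -0.56.

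The remaining classes held few members. Both multiplexins, which release endostatin-like fragments, rose in the BNST: Col18a1 by 2.73 ± 0.22 (adjusted p = 3.0e-08; 7.99, 15.7 and 30.3 CPM in the BNST and 1.72, 2.51 and 3.15 CPM in the mPFC) and Col15a1 by 0.84 ± 0.18 (adjusted p = 6.0e-04). Col25a1 was the transmembrane chain that passed, at 1.29 ± 0.08 (adjusted p = 5.4e-10), with 108, 140 and 180 CPM in the BNST and 54.0, 57.6 and 72.0 CPM in the mPFC. Col28a1 (chromosome 6, 7997808 to 8192617), known from peripheral nerve, had 0.170, 0.298 and 0.681 CPM in the BNST and 0.837, 1.22 and 1.93 CPM in the mPFC, a change of -1.69 ± 0.25 with adjusted p = 1.3e-05. Between regions, 14 of the 42 members did not overlap at all, 7 higher and 7 lower, beside 23.5% of all genes.

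The BNST comparisons asked what each pain model changed there. After CFA, 7 of 42 members passed against control, 6 lower and 1 higher, beside 11.9% of all genes (7.06% lower, 4.89% higher); the members' median log2 fold change was -0.20 and that of all genes 0.01. The lower ones were 2 type VI chains, Col6a1 and Col6a2, 2 fibrillar chains, Col11a2 and Col5a2, the FACIT chain Col19a1 and the multiplexin Col15a1, and the higher one was Col5a3. In 6 members the 3 CFA and 3 control libraries did not overlap, beside 31.5% of all genes.

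Col11a2 (chromosome 17, 34039437 to 34066685), a chain of type XI collagen of cartilage and inner ear, had 14.6, 13.0 and 15.6 CPM in BNST CFA libraries and 24.0, 24.5 and 24.7 CPM in BNST control libraries. The groups stood well apart, with a log2 fold change of -0.76 ± 0.10 and adjusted p = 7.0e-05, and the change ran from -0.83 to -0.69 when single libraries were left out. Col6a1 had 23.8, 20.5 and 20.2 CPM after CFA and 33.7, 46.4 and 95.4 CPM in controls, a change of -1.45 ± 0.32 with adjusted p = 0.0065. Control library 3 was the highest by far, and without it the change was -0.90 with adjusted p = 0.019. Leaving out that library and CFA library 2 together, chosen after seeing the data, gave -0.85 with adjusted p = 0.079.

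Col6a2 had 5.13, 5.22 and 7.42 CPM after CFA and 8.47, 8.73 and 12.1 CPM in controls, a log2 fold change of -0.72 ± 0.21 with adjusted p = 0.021. Col19a1 had 2.43, 1.13 and 2.25 CPM after CFA and 3.34, 4.59 and 4.15 CPM in controls, a change of -1.06 ± 0.32 with adjusted p = 0.025. Neither pair of groups overlapped. Col6a2 no longer passed without BNST control replicate 3 or BNST CFA replicate 1 or 2, where its change over all 18 such fits ran from -0.91 to -0.53, and Col19a1 no longer passed without BNST control replicate 2 or 3 or BNST CFA replicate 2 (-1.24 to -0.78). In the 9 BNST libraries alone neither passed, nor did Col6a2 with limma-voom or Col19a1 with no filter on low counts.

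Col5a2 had 3.31, 4.09 and 3.24 CPM after CFA and 5.75, 4.31 and 8.17 CPM in controls, a log2 fold change of -0.77 ± 0.27 with adjusted p = 0.049. Its call held only without BNST control replicate 2, mPFC control replicate 2 or 3, or mPFC CFA replicate 1 or 3 and was lost without any other single library (-0.97 to -0.50, adjusted p up to 0.24). The call was also lost with limma-voom, with no filter on low counts and in the 9 BNST libraries alone. Col15a1 had 6.02, 4.43 and 6.43 CPM after CFA and 5.56, 8.39 and 17.7 CPM in controls, so the groups overlapped, and its change of -0.91 ± 0.30 with adjusted p = 0.041 was -0.31 without BNST control replicate 3. It was kept only without BNST control replicate 1 or 2, BNST formalin replicate 1, mPFC formalin replicate 1 or 3, or BNST CFA replicate 3 (adjusted p up to 0.38 without the others), and with the replicate number as a block it was -0.89 with adjusted p = 0.062. Col15a1 was also lost with limma-voom, with no filter on low counts and in the 9 BNST libraries alone. Col5a3 rose, with 10.9, 8.47 and 10 CPM after CFA and 6.80, 5.44 and 7.06 CPM in controls, a change of 0.61 ± 0.18 with adjusted p = 0.022. It was lost without BNST control replicate 2 or BNST CFA replicate 1 (0.50 to 0.70). In the lane 2 libraries alone, with 1 BNST control library left, its change was 0.47, under the 0.5 limit. Marker sums differed between these groups too. Striatal sums were lower after CFA than in controls. Those of 6 habenular markers were higher, at 88.5 to 174 CPM after CFA and 24.2 to 53.6 CPM in controls. The habenular sum was also 84.9 to 127 CPM in mPFC libraries, so it is not particular to habenular tissue. Mural sums in the BNST were 102.1 to 119.5 CPM after CFA and 127.6 to 148.6 CPM in controls. The part of these marker sums in the collagen changes was not tested.

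**Figure D3:**
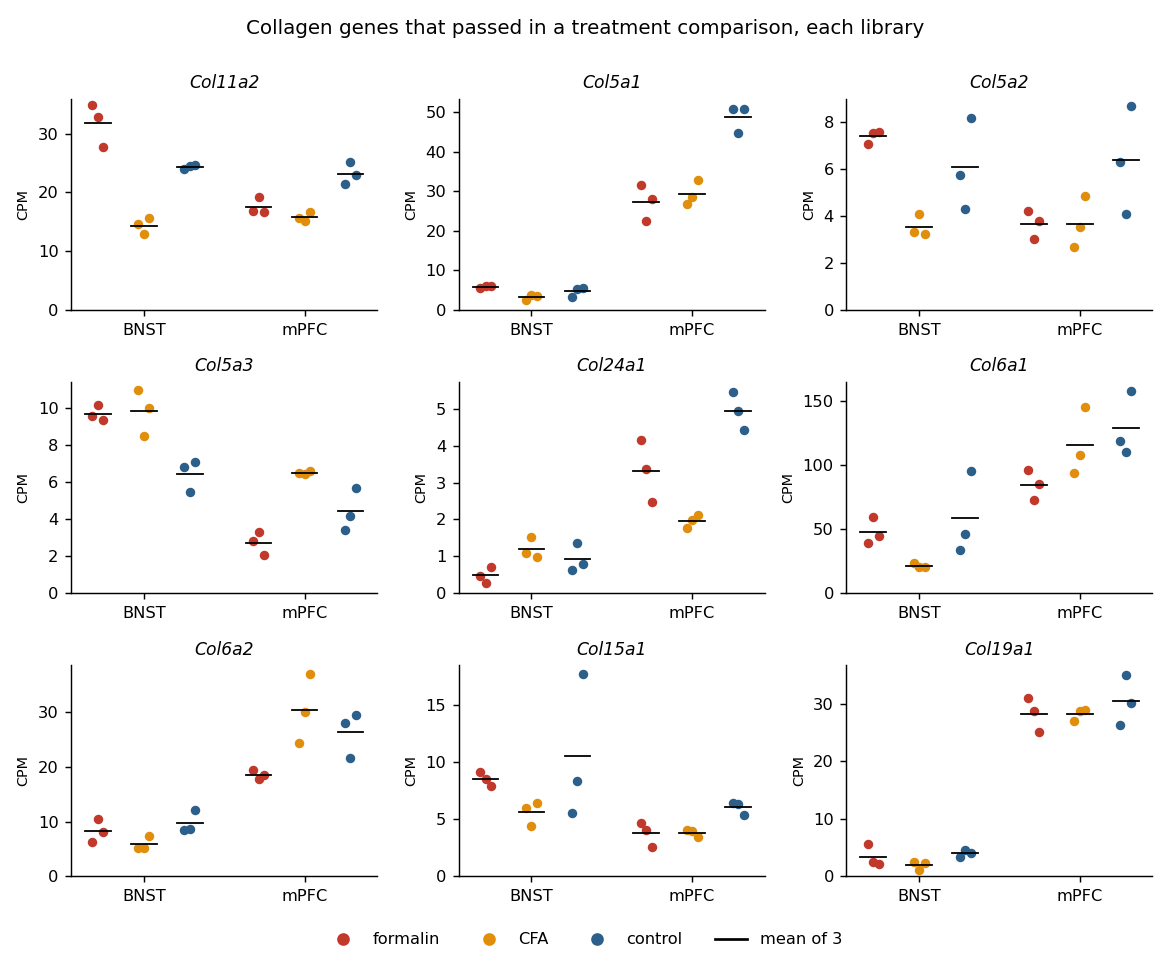
Level in CPM (linear axis from 0) of the 9 collagen genes that passed in a treatment comparison, in each library of the BNST (left) and mPFC (right). Points are single libraries and black lines the means of 3; within each region the groups run formalin, CFA and control. Col11a2 has its 3 BNST CFA libraries at 13.0 to 15.6 CPM, below its 3 control libraries at 24.0 to 24.7 CPM.

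Between the pain models in the BNST, 5 of 42 members passed, 4 higher and 1 lower after formalin than after CFA, beside 6.87% of all genes (3.91% higher, 2.96% lower). Col11a2 had 34.8, 32.9 and 27.8 CPM after formalin and 14.6, 13.0 and 15.6 CPM after CFA, a log2 fold change of 1.15 ± 0.10 with adjusted p = 8.0e-06 that ran from 1.07 to 1.23 without single libraries. Col5a1 had 5.54, 6.13 and 5.95 CPM after formalin and 2.59, 3.84 and 3.43 CPM after CFA, a change of 0.83 ± 0.19 with adjusted p = 0.0074 that held without each single library but not in the 9 BNST libraries alone (0.88, adjusted p = 0.076). Col5a2 had 7.07, 7.54 and 7.57 CPM after formalin and 3.31, 4.09 and 3.24 CPM after CFA, a change of 1.06 ± 0.27 with adjusted p = 0.015. The 2 type V chains and Col11a2 had no overlap between the models, and Col5a2 was lost only without BNST CFA replicate 1 (adjusted p = 0.056).

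Col6a1 had 39.0, 59.7 and 44.7 CPM after formalin and 23.8, 20.5 and 20.2 CPM after CFA, a log2 fold change of 1.15 ± 0.32 with adjusted p = 0.03. Col24a1 was the lower one, with 0.471, 0.271 and 0.723 CPM after formalin and 1.1, 1.53 and 0.986 CPM after CFA, a change of -1.26 ± 0.35 with adjusted p = 0.024. The groups of neither gene overlapped, and 12 members in all did not overlap, 11 higher and 1 lower after formalin, beside 32.1% of all genes (14.3% higher, 17.8% lower). Col6a1 was lost without BNST formalin replicate 2 or any BNST CFA library (0.96 to 1.28), and Col24a1 without BNST formalin replicate 1 or 2 or BNST CFA replicate 1 or 2 (-1.69 to -0.98). Both were also lost in the 9 BNST libraries alone, Col6a1 with no filter on low counts and Col24a1 in the lane 2 libraries alone. Marker sums did not overlap between the models either. Striatal sums were 1135 to 1618 CPM after formalin and 227.5 to 588.9 CPM after CFA. Habenular sums were 21.68 to 32.49 CPM and 88.51 to 173.7 CPM, and mural sums 152.3 to 158 CPM and 102.1 to 119.5 CPM. The part of these sums in the collagen changes was not tested.

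After formalin no member passed against BNST controls, beside 0.3% of all genes by edgeR; 13 members had an unadjusted p under 0.05, beside 19.6% of all genes, DESeq2 called 3, beside 2.15%, and limma-voom 0, beside 0.347%. The members' median log2 fold change was 0.18 against -0.04 for all genes, and 12 members had all 3 formalin libraries above all 3 controls, beside 11.6% of all genes. The largest values belonged to genes of the set that was high in the libraries with choroid plexus RNA. Col8a1 had 25.5, 70.9 and 54.8 CPM after formalin and 2.10, 10.1 and 1.36 CPM in controls, with 4.42, 149 and 5.07 CPM after CFA. Col4a4 had 7.19, 16.3 and 11.4 CPM after formalin and 1.17, 2.33 and 1.80 CPM in controls, with 0.828, 20.5 and 0.986 CPM after CFA. Col8a1 gave 3.46 ± 1.19 (adjusted p = 0.16), Col4a3 gave 3.05 ± 1.18 (adjusted p = 0.19) and Col4a4 gave 2.71 ± 0.94 (adjusted p = 0.16).

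The count of 0 changed when single libraries were left out. The model shares 1 estimate of spread over all groups, and the standard error of Col8a1 was 0.575 without BNST CFA replicate 2 against 1.19 with it. Without that library 7 members passed in BNST formalin against control, all higher: Col8a1 (3.46), Col4a3 (3.05), Col4a4 (2.71), Col8a2 (2.0), Col9a3 (1.80), Col14a1 (1.55) and Col5a3 (0.59), beside 4.66% of all genes. In formalin against CFA without it, 11 passed beside 12.4% of all genes. In 7 members (Col4a3, Col4a4, Col4a5, Col8a1, Col8a2, Col9a3 and Col14a1) the 4 highest BNST libraries were formalin 1 to 3 and CFA 2, the same 4 that were highest for the choroid plexus sum, beside 6.18% of all genes tested.

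**Figure D4:**
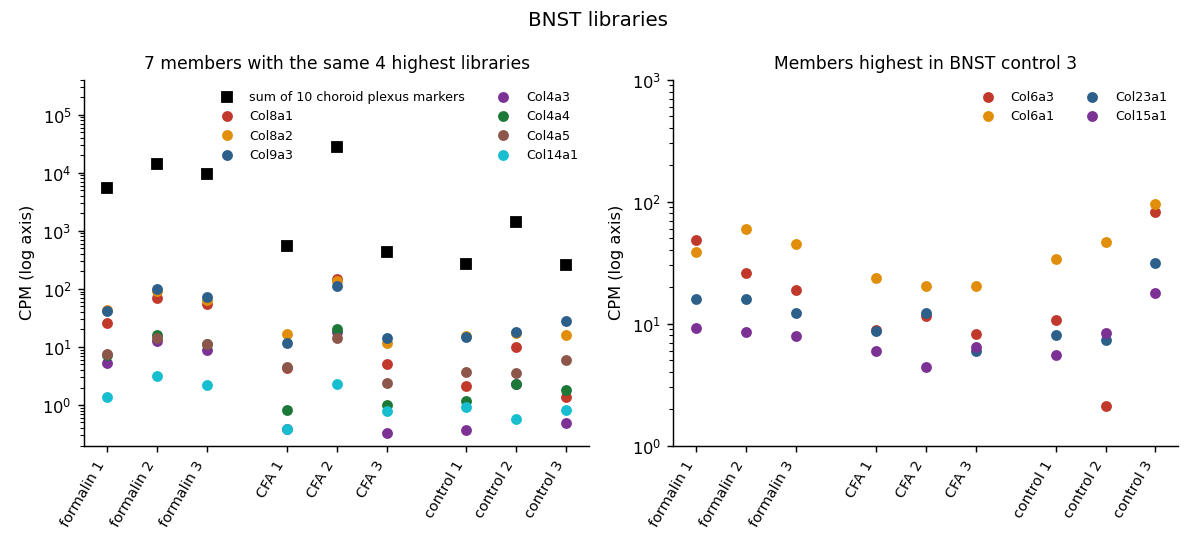
Levels in CPM (log axes) in the 9 BNST libraries, formalin, CFA and control from left to right. On the left, squares give the sum of 10 choroid plexus markers and circles the 7 collagen genes whose 4 highest libraries are the same as those of that sum; on the right, 4 collagen genes that were highest in BNST control library 3, such as Col6a3 at 81.7 CPM.

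Another library stood apart for other members, which are named here after their values were seen. BNST control library 3, the only BNST control in lane 2, had the highest value of the 9 BNST libraries for 16 of 42 members. BNST CFA library 2 had it for 10. The share of all genes that were highest in these libraries was not computed, so these counts are not shown to be particular to collagen genes. Col6a3 had 48.6, 25.9 and 19.0 CPM after formalin, 8.94, 11.6 and 8.26 CPM after CFA and 10.6, 2.10 and 81.7 CPM in controls. Col23a1, a transmembrane collagen, had 31.3 CPM in that library and 5.92 to 16.1 CPM in the other BNST libraries, while Col15a1 had 17.7 CPM there. Without it, Col6a3 passed in formalin against control (2.29 ± 0.54, adjusted p = 0.042), and 3 members instead of 7 passed in CFA against control, beside 8.47% of all genes in that fit: Col6a1, Col11a2 and Col5a3. Across the BNST the highest library exceeded the lowest by a median of 3.89-fold over the members, and by more than 10-fold in 6; in the mPFC the median was 2.32-fold, with 2 such members.

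In the mPFC few members passed, but most leaned one way. After formalin 1 of 42 passed against control, a lower one, beside 0.269% of all genes (0.205% lower, 0.0632% higher), yet 39 of 42 had a log2 fold change below 0, where 50.6% of all genes did; the median was -0.38 for the members and -0.004 for all genes. After CFA 3 passed, all lower, beside 0.632% of all genes (0.295% lower, 0.337% higher), and 36 of 42 lay below 0, where 49.9% of all genes did, with medians of -0.26 and 0. Both comparisons use the same 3 control libraries, and mPFC control libraries held the highest value of the 9 mPFC libraries for 29 of 42 members. The share of all genes that were highest in mPFC control libraries was not computed. In formalin against control 13 members did not overlap, all lower, beside 13.1% of genes that were all lower; in CFA against control 10 were all lower and 2 all higher, beside 12.3% and 13.4%.

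Col5a1 passed in both comparisons. It had 31.5, 22.6 and 27.9 CPM after formalin, 26.9, 28.5 and 33.0 CPM after CFA and 50.9, 44.8 and 50.9 CPM in controls, so controls stood above all treated libraries. The log2 fold change was -0.84 ± 0.16 (adjusted p = 0.032) for formalin and -0.73 ± 0.16 (adjusted p = 0.037) for CFA. The formalin call was lost without any one of the 3 mPFC control, 3 mPFC formalin or the first mPFC CFA libraries (-0.95 to -0.72, adjusted p up to 0.18), and the CFA call without any mPFC control or mPFC CFA library, BNST formalin replicate 3 or mPFC formalin replicate 3 (-0.82 to -0.67, adjusted p up to 0.19). Of its exon bases, 2.5% are shared with other genes.

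Col24a1 had 4.14, 3.37 and 2.46 CPM after formalin, 1.77, 1.99 and 2.12 CPM after CFA and 5.46, 4.94 and 4.42 CPM in controls. After CFA it fell by 1.33 ± 0.29 on the log2 scale (adjusted p = 0.037), a call lost without any mPFC control or mPFC CFA library or mPFC formalin replicate 2 (-1.41 to -1.25, adjusted p up to 0.18). Col11a2 had 16.8, 19.3 and 16.6 CPM after formalin, 15.7, 15.1 and 16.7 CPM after CFA and 21.5, 25.2 and 23 CPM in controls, and fell after CFA by 0.55 ± 0.10 (adjusted p = 0.016). That call was lost without mPFC control replicate 2 or 3 or mPFC CFA replicate 1 or 2 (-0.60 to -0.49). After formalin Col11a2 gave -0.40 ± 0.10 (adjusted p = 0.077). All 3 called genes encode fibrillar chains, a class with 3 lower and 0 higher of 11 after CFA and a median of -0.55.

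Between the models in the mPFC, Col5a3 alone passed, and it was lower, beside 0.932% of all genes (0.558% lower, 0.374% higher). It had 2.84, 3.30 and 2.05 CPM after formalin and 6.50, 6.42 and 6.57 CPM after CFA, with 3.42, 4.15 and 5.67 CPM in controls, which lay between. The log2 fold change of formalin over CFA was -1.25 ± 0.20 with adjusted p = 0.0037, and it held without each single library (-1.39 to -1.09, adjusted p up to 0.031). Col4a2 gave -0.59 ± 0.15 (adjusted p = 0.056) and Col4a1 gave -0.35 ± 0.13 (adjusted p = 0.19) in the same comparison, with no overlap between the groups for either; 13 members did not overlap, 9 lower and 4 higher, beside 28.3% of all genes. Mural marker sums were 177 ± 6.41 CPM after formalin, 153 ± 3.50 CPM after CFA and 199 ± 29.0 CPM in controls, and endothelial sums 131 ± 19.5 CPM after formalin, 116 ± 6.83 CPM after CFA and 185 ± 19.7 CPM in controls (SD, n = 3 each), so both means were lower after either agent than in controls; their part in the mPFC collagen values was not tested.

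**Figure D5:**
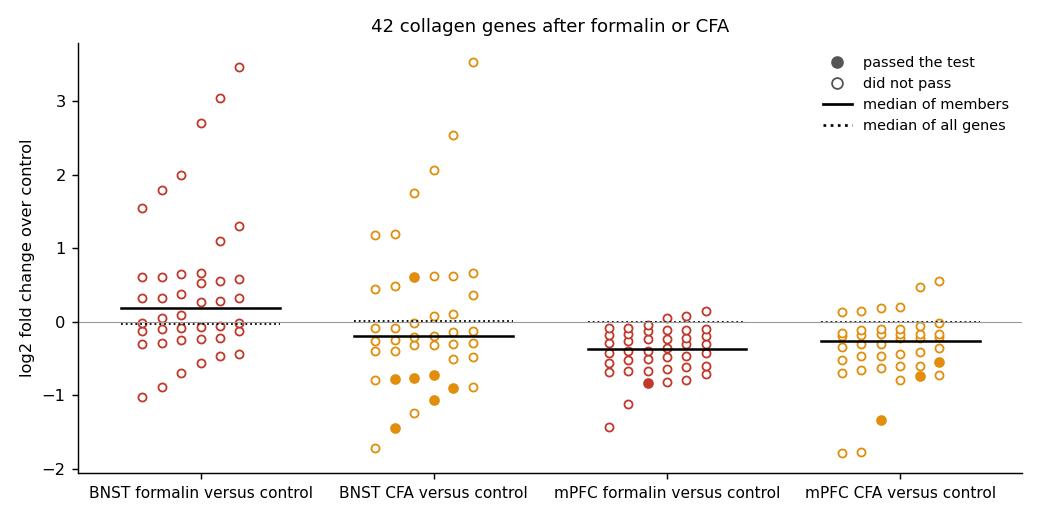
Log2 fold change over control of the 42 collagen genes (points; filled where the test was passed) for formalin and CFA in the BNST and mPFC. Solid lines are the medians of the members and dotted lines those of all genes tested; in the mPFC 39 members after formalin and 36 after CFA lie below 0.

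Whether a response differed between regions was tested as the BNST change minus the mPFC change. For formalin, 1 member passed, beside 0.158% of all genes (0.0474% higher, 0.111% lower): Col11a2, with a difference of 0.78 ± 0.14 on the log2 scale (adjusted p = 0.032), as it gave 0.38 in the BNST and -0.40 in the mPFC. For CFA, 1 passed, beside 4.17% of all genes (1.15% higher, 3.02% lower): Col24a1, with 1.70 ± 0.44 (adjusted p = 0.032), as it gave 0.37 in the BNST and -1.33 in the mPFC. Without BNST CFA replicate 2 7 members passed for formalin, beside 2.71% of all genes, and 0 for CFA, beside 3.85%; without BNST control replicate 3, 3 passed for formalin, beside 0.803%, and 0 for CFA, beside 3.82%. Neither held in every fit. With a replicate block by animal number both were lost (Col11a2 0.71, adjusted p = 0.15, and Col24a1 1.49, adjusted p = 0.16), with 0 members called for each agent, beside 0.0263% of all genes for formalin and 2.4% for CFA, and with a block by replicate number within treatment the formalin count was 0 and the CFA count 1, a member other than Col24a1, which did not pass there. No other difference between regions in a member's response passed, so that calls made in 1 region alone, such as Col6a1 after CFA, are not shown to differ from the other region.

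Genes that make, bind and break collagen were set beside the members. Of 29 genes of collagen processing, 11 were higher and 3 lower in the BNST than in the mPFC; over all genes 20.9% were higher and 16.3% lower, and the list counts that follow are to be read against these shares. The largest changes were those of Pcolce2 (2.19 ± 0.28) and Pcolce (1.96 ± 0.57), enhancers of procollagen cleavage, Adamts14 (-1.67 ± 0.28), a procollagen N-proteinase, and Loxl4 (1.61 ± 0.43), a crosslinking oxidase. Of 11 tested genes of collagen degradation and its inhibition, 6 were higher and 2 lower, led by Mmp15 (1.64 ± 0.11), a membrane metalloproteinase, Timp3 (1.51 ± 0.12), an inhibitor of such enzymes, Timp1 (-1.14 ± 0.19) and Mmp2 (0.97 ± 0.20). Of 11 tested collagen receptors, 3 were higher and 2 lower, with Ddr1 (1.43 ± 0.08), a receptor kinase for collagen, the largest. Of 19 basement membrane partners, 9 were higher and 4 lower, led by Smoc2 (-3.23 ± 0.30) and Sparc (2.42 ± 0.11), a collagen-binding protein of glia and vessels. Of 18 small leucine-rich and fibril-associated proteins, 7 were higher and 3 lower, led by Postn (3.58 ± 0.23) and Ccn2 (-2.75 ± 0.31).

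In the treatment comparisons the counts were smaller. In the BNST after CFA, 2 of 29 processing genes were higher and 1 lower than in controls, beside 4.89% and 7.06% of all genes, and Adamts3, a procollagen N-proteinase, had 24.3, 20.5 and 14.1 CPM after formalin, 10.5, 6.06 and 7.84 CPM after CFA and 24.8, 32.8 and 26.9 CPM in controls, a log2 fold change of -1.79 ± 0.20 (adjusted p = 1.4e-05) of CFA over control. The higher ones were Pcolce2 (1.4 ± 0.45) and P4ha2 (0.61 ± 0.14), a prolyl hydroxylase chain. Itga1, the integrin chain that pairs to bind collagen, fell after CFA in the BNST (-0.89 ± 0.19, adjusted p = 0.0034) and in the mPFC (-1.02 ± 0.19, adjusted p = 0.016). Among 19 basement membrane partners, 1 was higher and 4 lower in the BNST after CFA, with Lama3 (-0.93 ± 0.25), Pxdn (-0.76 ± 0.13), Sparc (0.67 ± 0.18) and Lama4 (-0.61 ± 0.21) the largest. After formalin none of the genes of these lists passed in the BNST by edgeR, and in the mPFC Ccn1 alone did (-1.38 ± 0.21, adjusted p = 0.023). In the mPFC after CFA, 1 processing gene was higher than in controls, the prolyl hydroxylase chain P4ha3 (0.89 ± 0.18), and 1 lower, Tll2 (-1.38 ± 0.25), beside 0.337% and 0.295% of all genes. Between formalin and CFA in the mPFC, 4 of 29 processing genes were lower and 0 higher, beside 0.558% and 0.374% of all genes: Adamts2, a procollagen N-proteinase (-1.40 ± 0.28), P4ha3 (-0.79 ± 0.18), P3h3 (-0.75 ± 0.15) and P4ha2 (-0.62 ± 0.14).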

How the data were processed

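Per the labels and methods, the authors made poly(A) libraries, trimmed paired-end reads with Trimmomatic 0.39, used HISAT2 2.2.1 to align them to GRCm38 (mm10), and obtained gene counts through Samtools 1.9 sorting and featureCounts 2.0.1; the deposited table holds raw counts. Strand setting and annotation release are not given in the sources used here. Symbols and exon lengths came from GENCODE M21 (GRCm38); 260 of 55401 IDs had none. All 18 columns matched a sample. Lane tags and animal numbers were read from library names in a supplementary table: lane 1 held BNST control 1 and 2, lane 3 held BNST formalin 1, and lane 2 held the rest.

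Counts were tested with edgeR 4.0.16 (R 4.3.3) in 1 model of 6 group means with 12 residual degrees of freedom: TMM scaling, filterByExpr (minimum count 10, minimum total 15), robust quasi-likelihood, Benjamini-Hochberg over 18994 genes. CPM uses TMM-scaled library sizes and TPM the summed exon length. Alternatives were DESeq2 1.42.0, limma-voom (limma 3.58.1), RLE scaling, other filters, fewer libraries, lane 2 only and replicate blocks. The fits were also run on counts simulated from region means and fitted dispersions, with known changes added. That simulation set no outlying library and no shared brain, and its outcome is not given here. Members that passed in any of the 9 comparisons are named; values per library are given for up to 6 members with the largest change in a treatment comparison, 6 higher and 6 lower between regions, the 5 with the highest TPM per region, and chain partners; other lists name up to 4 genes. Members and lists were chosen with earlier results of these data known. Replicate numbers were not taken as pairs: residuals of libraries that shared number and treatment correlated at -0.03 to 0.17 and passed 0.1 in 1 of 9 pairs. Animal numbers, taken here to mark a shared brain, gave 8 pairs of regions at -0.03 to 0.17, with 2 above 0.1. The fit with that number as a block called 30 members between regions, the 29 of the unblocked fit included.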

Additional observations from a re-analysis of the deposited data

Results flagged for a closer look

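The formalin response of Col11a2 differed between regions in the test of the difference itself, which did not pair regions by brain. The difference was 0.78 ± 0.14 on the log2 scale (adjusted p = 0.032, edgeR). In the BNST it had 34.8, 32.9 and 27.8 CPM in formalin and 24.0, 24.5 and 24.7 CPM in control libraries. In the mPFC it had 16.8, 19.3 and 16.6 CPM in formalin and 21.5, 25.2 and 23 CPM in control libraries. All 3 formalin libraries lay above the controls in the BNST and below them in the mPFC.

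The CFA response of Col24a1 differed likewise, by 1.7 (adjusted p = 0.032), with 1.1, 1.53 and 0.986 CPM in CFA and 0.618, 1.36 and 0.805 CPM in control libraries of the BNST, and 1.77, 1.99 and 2.12 CPM in CFA and 5.46, 4.94 and 4.42 CPM in control libraries of the mPFC. Its BNST groups overlapped, and its mPFC groups did not. Over the fits without a single library the difference ran from 1.48 to 2.09, and 8 of the 18 fits lost it. For Col11a2 it ran from 0.72 to 0.87, and 9 of the 18 lost it. Both calls were also lost with a block by animal number and with a block by replicate number within treatment. That of Col11a2 was lost in the lane 2 libraries only as well, where BNST control kept 1 library.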

How the results depend on the processing

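Of the values of named collagen genes over all alternatives, 1298 kept direction and call, 153 kept direction and lost the call, and 2 reversed: Col6a6 in BNST against mPFC gave -0.02 in the 6 control libraries alone and -0.01 within control mice. Col8a1, Col4a3, Col4a4 and Col4a5 in BNST against mPFC were lost in those 6 libraries, as were Col2a1, Col5a3, Col6a1, Col6a3, Col9a1 and Col15a1. The cause was not tested.

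Counts of members called moved as follows. Here and below they are given without the share of all genes called in each fit. A count that moved is therefore not shown to have moved for the collagen genes in particular. With DESeq2, BNST formalin against control gave 3, mPFC formalin against control 3, mPFC formalin against CFA 3, and the regional differences in response 3 for formalin and 2 for CFA. With limma-voom, BNST CFA against control gave 4, BNST formalin against CFA 8 and mPFC formalin against CFA 2. With no filter on low counts, BNST CFA against control gave 4 and the regional difference for formalin 2. With the 9 libraries of a region alone, BNST CFA against control gave 3, BNST formalin against CFA 2, mPFC formalin against control 5, mPFC CFA against control 6 and mPFC formalin against CFA 6. The 6 control libraries alone gave 19 between regions. In lane 2 libraries only, where BNST control kept 1 library assumed to vary like the other groups, BNST formalin against control gave 2, BNST CFA against control 13, mPFC formalin against CFA 3 and the regional difference for CFA 6. Leaving out BNST control replicate 3 and BNST CFA replicate 2 together, chosen after seeing the data, gave 9 for BNST formalin against control, 3 for BNST CFA against control and 14 for BNST formalin against CFA. Within formalin, CFA and control mice, also chosen after seeing the data, 27, 23 and 23 differed between regions.

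Leaving out each library in turn gave 0 to 7 in BNST formalin against control, 3 to 10 in BNST CFA against control, 2 to 11 in BNST formalin against CFA, 0 to 2 in mPFC formalin against control, 0 to 3 in mPFC CFA against control, 1 to 3 in mPFC formalin against CFA, 28 to 29 between regions, and 0 to 7 for formalin and 0 to 2 for CFA in the regional difference.

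With the replicate number as a block, the treatment comparisons kept their counts but not every member, since Col15a1 in BNST CFA against control was lost (-0.89, adjusted p = 0.062): BNST formalin against control 0, BNST CFA against control 7, BNST formalin against CFA 5, mPFC formalin against control 1, mPFC CFA against control 3 and mPFC formalin against CFA 1. With a replicate block within treatment 29 members differed between regions and 0 in the formalin response, and with a replicate block by animal number 30 differed between regions, 0 in the formalin response and 0 in the CFA response.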
